A study of Danio rerio with 2 samples.

Results

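Transcripts of 7 genes linked to the zebrafish hatching gland were followed in cells sorted from crestin_1kb:EGFP embryos at 15 SS. The genes are the hatching enzymes he1a and he1b, the cathepsin L gene ctsl1b, the transcription factor gene klf4b, the tetraspanin gene cd63, the disulfide isomerase gene agr2 and the secretory transcription factor gene xbp1. They were chosen by FPKM in these same libraries, because the hatching enzymes are higher in EGFP-positive (EGFP+) than in EGFP-negative (EGFP-) cells. The direction of he1a and he1b is therefore a description of how the set was chosen. Whether ctsl1b counted as a hatching enzyme in that choice is not stated, so its direction is not read as a result either. That reason gave no direction for klf4b, cd63, agr2 and xbp1. All 7 were present among the 14428 rows of the deposited table of FPKM (a read abundance corrected for gene length and library size), and all 7 reached at least 1 FPKM in either library, agr2 through EGFP+ cells alone. In the RefSeq gene table of the later assembly GRCz12tu, he1a is listed as he1.1, he1b as he1.2, ctsl1b as ctslb and klf4b as klf17. No row that joins several symbols held one of them.

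The EGFP-positive library came from about 5500 sorted cells, which the labels call crestin-positive neural crest cells, and the EGFP-negative library from about 100000 cells of the same stage. Both fractions carried the same transgene, in which a crestin fragment drives the fluorescent protein EGFP, and the labels report 1 sample per fraction, with no count of the embryos that were pooled. With no replicate there is no error to set beside a value, and no test was made. The log2 ratio used throughout is the difference in log2(FPKM + 1) between the libraries, EGFP+ minus EGFP-, and a gene is called higher or lower where that difference is at least 1, which is 2-fold. Folds are plain quotients of the FPKM values.

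The hatching gland forms from the most anterior mesendoderm, the polster of the prechordal plate, whose cells come to lie over the front of the yolk. Its cells fill with granules of proteases and release them to soften and dissolve the egg envelope, the chorion, so that the larva can leave. Making such granules loads the endoplasmic reticulum (ER), where secreted proteins are folded, and the granules carry tetraspanins in their membranes. The neural crest, which the sort was designed to collect, is a separate ectodermal population.

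The enzymes of the hatching granules were higher in EGFP+ cells, which is how the set was chosen. The regulator klf4b was lower, and the membrane and folding genes cd63 and xbp1 lay less than 2-fold apart. Of the 7 genes, 4 were called higher and 1 lower. Among the 9685 rows at 1 FPKM or more in either library, 22.9% were called higher and 26.5% lower. Nothing about the set is read from its count or its median, since the same contrast chose it. The median log2 ratio of the 7 genes was 1.40, against -0.04 over all those rows. Without agr2, which was listed at 0 in EGFP- cells, 3 of 6 were called higher and the median was 0.96. Among the 7449 of those rows that were above 0 in both libraries, 17.8% were called higher and 16.5% lower. In sorted bulk RNA such as this, more cells of a type and more RNA per cell cannot be told apart.

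**Figure D1:**
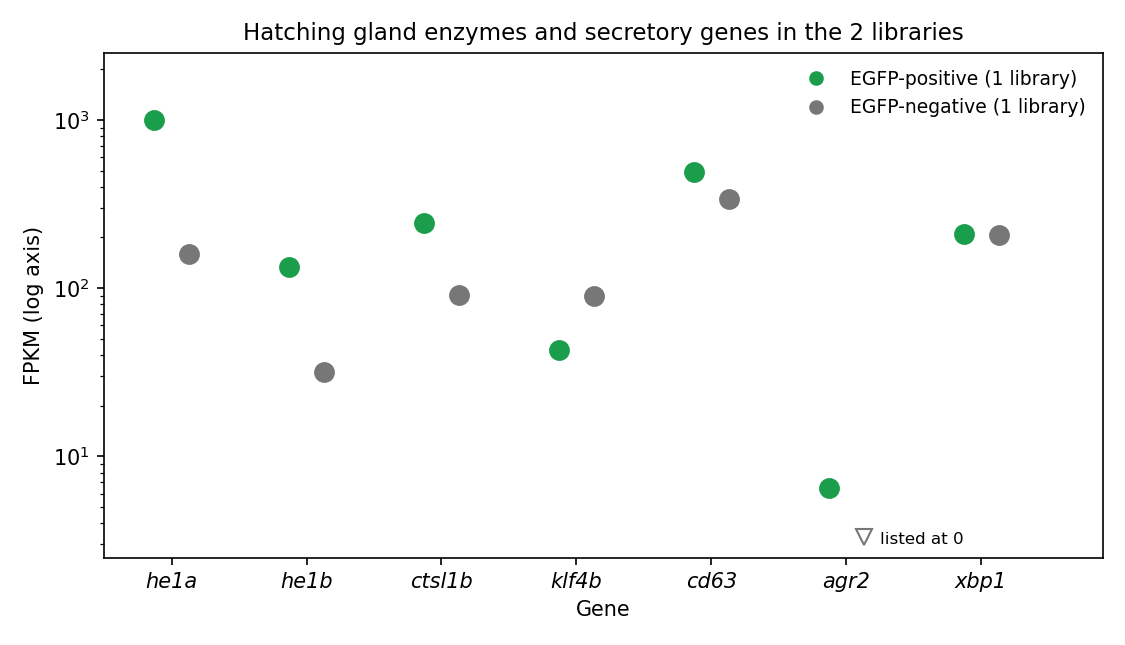
FPKM on a log axis (y) of the 7 genes (x) in EGFP+ cells (green) and the EGFP-negative library (grey), with 1 point per library and no error bar because each fraction is 1 library. The 3 protease genes at the left are higher in EGFP+ cells, klf4b is lower, cd63 and xbp1 lie close together, and the open triangle marks agr2 as listed at 0 in EGFP- cells.

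Among the proteases, he1a had the highest level of the 7 genes in EGFP+ cells. It encodes a zinc metalloprotease of the astacin family that attacks the chorion. Its level was 1004 FPKM in EGFP+ cells and 159.9 FPKM in EGFP- cells, a ratio of 6.28. Ordered from the highest FPKM down, he1a was row 129 of the table in EGFP+ cells and row 819 in EGFP- cells. It made up 0.107% of the FPKM summed without the small nuclear RNA rn7sk in EGFP+ cells and 0.0192% in EGFP- cells. Its log2 ratio of 2.64 was exceeded by 750 of the 9685 rows, or 7.74% of them, so many other genes lay further apart.

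The second hatching enzyme gene, he1b, is the immediate neighbour of he1a in the gene order of GRCz12tu, with 0 annotated genes between them. He1b stood at 134 FPKM in EGFP+ cells and 31.6 FPKM in EGFP- cells, a ratio of 4.25 and a log2 ratio of 2.05. Because the pair are close relatives, reads can be divided between them in a way the table does not show, and the level of each alone is uncertain. Their summed level depends less on that division, and it was 1138 FPKM in EGFP+ cells and 191 FPKM in EGFP- cells, a ratio of 5.95. Per length, he1a exceeded he1b 7.48-fold in EGFP+ cells and 5.06-fold in EGFP- cells.

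Ctsl1b encodes a cathepsin L-type cysteine protease, and its synonym in the RefSeq table is hgg1. It stood at 242 FPKM in EGFP+ cells and 90.96 FPKM in EGFP- cells, a ratio of 2.66 and a log2 ratio of 1.40. This difference was smaller than those of both hatching enzyme genes. He1a exceeded ctsl1b 4.14-fold per length in EGFP+ cells and 1.76-fold in EGFP- cells, quotients that have no error and carry the uncertainty of he1a. The 3 protease genes together held 1381 FPKM in EGFP+ cells and 282 FPKM in EGFP- cells, whereas the other 4 genes summed to 749 and 639 FPKM in that order.

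Klf4b encodes a Krüppel-like zinc finger factor that the hatching gland needs for its development in zebrafish. Its level was 42.9 FPKM in EGFP+ cells and 90.2 FPKM in EGFP- cells, the opposite direction to the proteases. The log2 ratio of -1.05 lay just past the threshold, and it was -0.99 with a pseudocount of 5 FPKM, which ends the call. Relative to he1a, klf4b stood at 0.0427 in EGFP+ cells and 0.564 in EGFP- cells.

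Cd63 encodes a tetraspanin of lysosomes and secretory granules that many cell types make. It stood at 490 FPKM in EGFP+ cells and 341 FPKM in EGFP- cells, a log2 ratio of 0.52 that did not reach the threshold. Xbp1 encodes the bZIP factor that, after its RNA is spliced by the ER stress sensor Ern1, switches on genes of folding and secretion. It was nearly level, at 209 FPKM in EGFP+ cells and 208 FPKM in EGFP- cells, a log2 ratio of 0.01. The table gives 1 value per gene, so the spliced and unspliced forms of xbp1 were not distinguished. In both libraries xbp1 held nearly the same place, row 615 in EGFP+ cells and row 614 in EGFP- cells.

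Agr2 encodes an ER disulfide isomerase typical of mucus-secreting cells, and its relatives mark the cement gland in frogs. It was the lowest of the 7 genes in EGFP+ cells, at 6.48 FPKM, and was listed at 0 in EGFP- cells. An exact 0 in this table can be a lost estimate, and of the 9685 rows 1343 were listed at 0 in EGFP+ cells and 893 in EGFP- cells, so no fold is given and its call rests on that listed value. Its level in EGFP+ cells was row 6659 of the table.

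By level in EGFP+ cells the order was he1a, cd63, ctsl1b, xbp1, he1b, klf4b and agr2, and in EGFP- cells it was cd63, xbp1, he1a, ctsl1b, klf4b, he1b and agr2. With 1 library per fraction it is unknown which neighbours in either order differ beyond a spread. The plot of the 7 genes among all rows places the 3 proteases above the upper 2-fold line and klf4b on the lower one. At 100 FPKM or more in either library, a minimum chosen after seeing the data, 17.1% of 1659 rows were called higher and 15.1% lower, and 3 of the 5 genes that reached it were called higher.

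**Figure D2:**
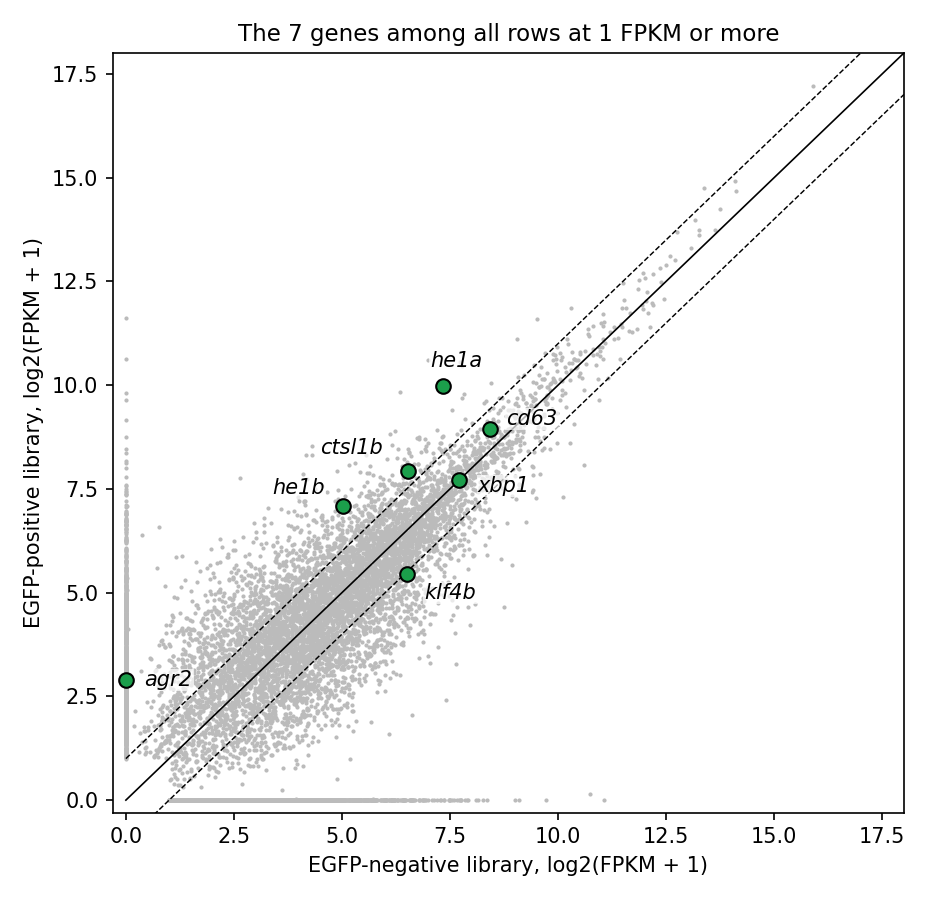
Each grey point is a row at 1 FPKM or more in either library, with log2(FPKM + 1) in EGFP- cells on the x axis and in EGFP+ cells on the y axis, 1 library each, and the 7 genes are in green. The solid line marks equal values and the dashed lines 2-fold differences; he1a, he1b, ctsl1b and agr2 lie above the upper line, cd63 and xbp1 between the lines, and klf4b at the lower one.

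Genes close to the hatching enzymes in level were found by Euclidean distance in log2(FPKM + 1) over the 2 libraries. For he1a they included klf6a (818 FPKM in EGFP+ cells and 217 FPKM in EGFP- cells, distance 0.53) and ap3s2 (670 FPKM in EGFP+ cells and 185 FPKM in EGFP- cells, distance 0.62). For he1b they were thy1 (125 FPKM in EGFP+ cells and 31.9 FPKM in EGFP- cells, distance 0.11), sf3b5 (122 and 35.2 FPKM, distance 0.21) and cenph (151 and 28.96 FPKM, distance 0.21), in the same order. With only 2 libraries, likeness says no more than that a pair of values is close.

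Genes that specify the gland's precursors were mixed. Of 11 listed regulators and prechordal plate genes, 9 reached 1 FPKM, of which 5 were called higher, 2 lower and 2 neither, with a median log2 ratio of 1.02 that became 0.74 over the 5 above 0 in both libraries. Prdm1a, a zinc finger repressor needed for the gland and also a regulator of the neural crest, stood at 112 FPKM in EGFP+ cells and 22.1 FPKM in EGFP- cells. Dkk1b, a secreted Wnt inhibitor of the prechordal plate, was at 171 FPKM in EGFP+ cells, and foxa3, a forkhead factor of endoderm, at 44.97 FPKM, and both were listed at 0 in EGFP- cells. The Wnt receptor genes fzd8a (12.4 FPKM in EGFP+ cells and 73.98 FPKM in EGFP- cells) and fzd8b (listed at 0 in EGFP+ cells and at 12.7 FPKM in EGFP- cells) were lower. Goosecoid (gsc) and lft1, early markers of the prechordal plate, were listed at 0 in both libraries.

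Other members of the enzyme families were found on both sides. Of 13 listed astacins and relatives, he2, which encodes a second hatching enzyme, was among the genes listed at 0 in both libraries. From this list 5 reached 1 FPKM, with 2 higher and 2 lower and a median log2 ratio of -0.38. Over the 4 above 0 in both libraries, 1 was higher and 2 lower, with a median of -1.04. Bmp1a, an astacin that matures collagen, was at 40.3 FPKM in EGFP+ cells and 13.5 FPKM in EGFP- cells, and c6ast3 was at 3.03 FPKM in EGFP+ cells and listed at 0 in EGFP- cells. Bmp1b (0.863 FPKM in EGFP+ cells and 5.01 FPKM in EGFP- cells) and tll1 (2.11 FPKM in EGFP+ cells and 10.002 FPKM in EGFP- cells) were lower.

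Of the listed cathepsins, the lysosomal proteases to which ctsl1b belongs, 12 were measured besides it. Of these, 3 were called higher and 3 lower, with a median log2 ratio of 0.06, and the list may not hold every cathepsin gene. The higher ones were tinagl1 (11.1 FPKM in EGFP+ cells and 2.27 FPKM in EGFP- cells), a relative without protease activity, and ctsbb and ctsc, which were under 3 FPKM and listed at 0 in EGFP- cells. Ctsh, an aminopeptidase, was at 3.57 FPKM in EGFP+ cells and 29.8 FPKM in EGFP- cells. Ctsk (4.68 FPKM) and ctsz (4.03 FPKM) were measured in EGFP- cells and listed at 0 in EGFP+ cells. Another cathepsin L gene, ctsl1a, named after its values were seen, was at 322 FPKM in EGFP+ cells and 323 FPKM in EGFP- cells. Ctsl1a and ctsl1b thus did not show the same difference, and this says nothing of further cathepsin L genes. The listed ctsl.1 and ctsll were at 0 in both libraries. Of 3 measured inhibitors of cysteine proteases, cst14a.2 stood at 318 FPKM in EGFP+ cells and 45.8 FPKM in EGFP- cells, cst14b.1 at 48.8 and 28.2 FPKM in the same order, and cst3 was listed at 0 in EGFP+ cells and at 14.9 FPKM in EGFP- cells.

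Of 25 measured tetraspanins other than cd63, 6 were called higher and 9 lower, with a median log2 ratio of -0.62. Over the 15 above 0 in both libraries, 3 were called higher and 2 lower, with a median of -0.16, so the lean to lower rests on listed zeros. Tspan33 (26.6 FPKM), tspan13a (5.33 FPKM) and tspan15 (4.12 FPKM) were measured in EGFP+ cells and listed at 0 in EGFP- cells. Cd151 (85.0 FPKM), cd9a (51.2 FPKM) and tspan13b (23.6 FPKM) were measured in EGFP- cells and listed at 0 in EGFP+ cells. Among Krüppel-like and Sp factors, which share the zinc fingers of klf4b, 8 of 24 were called higher and 5 lower, with a median of 0.42. Sp8a, a factor of limb and brain, was at 44.9 FPKM in EGFP+ cells and 2.29 FPKM in EGFP- cells, sp4 at 98.55 and 8.22 FPKM in that order, and sp7 at 30.3 FPKM in EGFP+ cells and listed at 0 in EGFP- cells. Klf12b was listed at 0 in EGFP+ cells and stood at 46.5 FPKM in EGFP- cells. Klf3 was at 4.67 FPKM in EGFP+ cells and 23.96 FPKM in EGFP- cells, and klf4a was listed at 0 in EGFP+ cells and at 3.17 FPKM in EGFP- cells.

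Genes that fold and export secreted proteins showed no shared 2-fold difference, although single members differed. Of 36 measured genes of the unfolded protein response, in which xbp1 acts, 13 were called higher, 5 lower and 18 neither, with a median of 0.42, against shares of 22.9% higher and 26.5% lower over all rows. Scaled to the same summed FPKM without rn7sk, the list had 8 higher and 6 lower, with a pseudocount of 5 FPKM 7 and 3, and at 3-fold 6 and 3, so its balance of calls depends on the setting. Creld2, an ER chaperone, stood at 37.3 FPKM in EGFP+ cells and 2.15 FPKM in EGFP- cells. Ern1, the sensor that splices xbp1 RNA, was at 11.02 FPKM in EGFP+ cells and ddit3, a stress-induced factor, at 10.8 FPKM, and both were listed at 0 in EGFP- cells. Creb3l1, a factor of secretory cells, was listed at 0 in EGFP+ cells and stood at 8.51 FPKM in EGFP- cells. Manf, a secreted ER stress protein, was at 32.2 FPKM in EGFP+ cells and 122 FPKM in EGFP- cells, and herpud2 at 6.04 and 27.5 FPKM in that order.

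Of 15 disulfide isomerases and oxidases, the family of agr2, 4 were called higher and 1 lower, with a median of 0.13. Pdia5 was at 177 FPKM in EGFP+ cells and 62.4 FPKM in EGFP- cells. Tmx1 (30.3 FPKM) and tmx2a (28.8 FPKM) were listed at 0 in EGFP- cells, and tmx3b, at 230 FPKM in EGFP- cells, was listed at 0 in EGFP+ cells. The 28 genes of the translocon, signal peptidase and glycosylation machinery had 2 higher, 6 lower and 20 less than 2-fold apart, with a median of -0.24. Sec62 (189.7 FPKM in EGFP+ cells and 61.9 FPKM in EGFP- cells) and tram1 (824 and 396 FPKM in that order) were the 2 higher ones, and the log2 ratio of tram1, 1.06, was 0.88 when the libraries were scaled to the same summed FPKM without rn7sk, which ends its call. Spcs3, a signal peptidase subunit, was at 27.2 FPKM in EGFP+ cells and 68.1 FPKM in EGFP- cells, and srp9 (13.7 FPKM) and srp19 (3.73 FPKM) were listed at 0 in EGFP+ cells. The calls of the translocon list also depend on the setting. It had 2 higher and 3 lower with a pseudocount of 5 FPKM, 1 and 2 at 3-fold, and 2 and 4 without rows at 0.

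**Figure D3:**
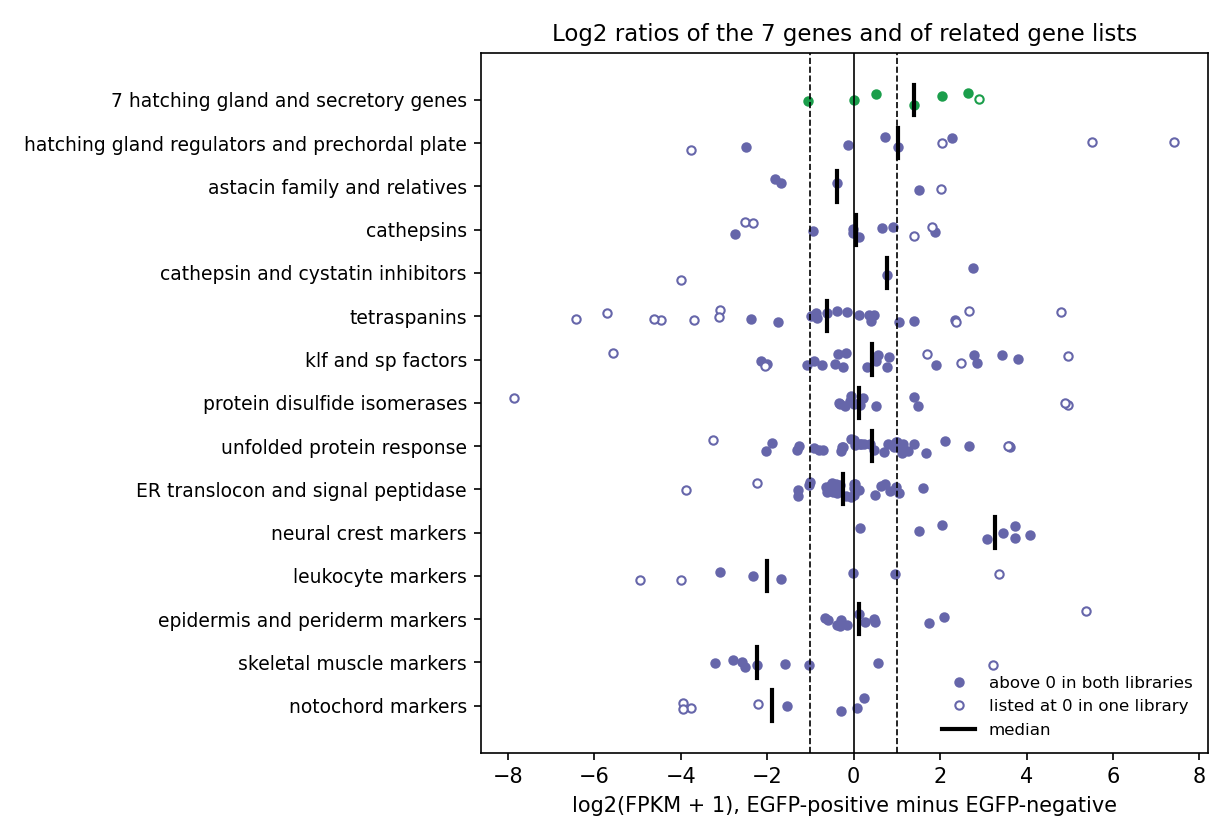
Log2 ratio (x, EGFP-positive minus EGFP-negative) of the 7 genes (top row, green) and of the related lists and cell type markers with at least 3 measured genes (rows below), 1 point per gene at 1 FPKM or more in either library, with black bars at the medians. Open points are genes listed at 0 in one library, whose place depends on the pseudocount, and the dashed lines mark 2-fold; the unfolded protein response, isomerase and translocon lists have medians of 0.42, 0.13 and -0.24, and the neural crest markers one of 3.27.

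Markers of the labelled cells and of other types gave the following levels in the same libraries, and their part in the levels of the hatching gland genes was not tested. Their counts stand beside 22.9% of all rows called higher and 26.5% called lower. Of 8 neural crest markers 7 were called higher and none was at 0, with a summed level of 980 FPKM in EGFP+ cells and 207 FPKM in EGFP- cells. Ednrab, an endothelin receptor gene, was at 229.5 FPKM in EGFP+ cells against 16.2 FPKM in EGFP- cells, pax7a at 74.2 against 4.63 FPKM and the neuregulin receptor gene erbb3b at 16.4 against 0.0324 FPKM. The crestin and EGFP transcripts were not analysed here. The hatching enzyme pair exceeded sox10, a crest factor, 7.75-fold per length in EGFP+ cells and 11.8-fold in EGFP- cells. Epidermis and periderm, the surface layers that lie next to the gland, had 3 of 13 measured markers higher, near the share over all rows. None was lower, 10 lay less than 2-fold apart, and the median log2 ratio was 0.12. Their summed level was 1062 FPKM in EGFP+ cells and 1123 FPKM in EGFP- cells. The 3 higher ones were epcam (97.4 FPKM in EGFP+ cells and 22.3 FPKM in EGFP- cells), cldne (25.8 and 7.01 FPKM in that order) and icn, at 40.2 FPKM in EGFP+ cells and listed at 0 in EGFP- cells.

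Leukocytes, which also make cathepsins and cd63, had 1 of 8 measured markers higher and 5 lower, with a summed level of 144 FPKM in EGFP+ cells and 237 FPKM in EGFP- cells. Mpeg1 (29.8 FPKM in EGFP- cells) and irf8 (14.9 FPKM in EGFP- cells) were listed at 0 in EGFP+ cells, spi1a, at 9.21 FPKM in EGFP+ cells, was listed at 0 in EGFP- cells, and spi1b was at 7.57 FPKM in EGFP+ cells and 71.6 FPKM in EGFP- cells. Skeletal muscle markers, 7 of 9 lower and 1 higher, summed to 89.2 FPKM in EGFP+ cells and 291 FPKM in EGFP- cells. Unc45b, a myosin chaperone, was at 12.9 FPKM in EGFP+ cells and 82.8 FPKM in EGFP- cells, myf5 at 5.12 and 55.2 FPKM and mylpfa at 2.84 and 25.8 FPKM in that order, while tnnt3b, at 8.29 FPKM in EGFP+ cells, was listed at 0 in EGFP- cells. Notochord markers, 5 of 8 lower, summed to 177 FPKM in EGFP+ cells and 247 FPKM in EGFP- cells. Of these markers, 4 were listed at 0 in EGFP+ cells: col9a2, shha, cav1 and ntn1b. Over the 4 notochord markers above 0 in both libraries, 1 was called lower and the median log2 ratio was -0.10. Of the mucous cell and gut list only foxa1 reached 1 FPKM, at 26.97 FPKM in EGFP- cells and listed at 0 in EGFP+ cells, and the agr2 relative agr1 was listed at 0 in both.

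The values of the 6 genes above 0 in both libraries moved little with the scale. Over 4 alternatives of pseudocount and scaling, the log2 ratio lay between 2.47 and 2.65 for he1a, between 1.88 and 2.08 for he1b and between 1.23 and 1.41 for ctsl1b. That of klf4b lay between -1.22 and -0.99, that of cd63 between 0.35 and 0.52 and that of xbp1 between -0.16 and 0.01. Scaling both libraries to the same summed FPKM without rn7sk lowers every quotient by 0.17 on the log2 scale, and under this scaling and the scaling to the median ratio xbp1 lay just below 0.

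**Figure D4:**
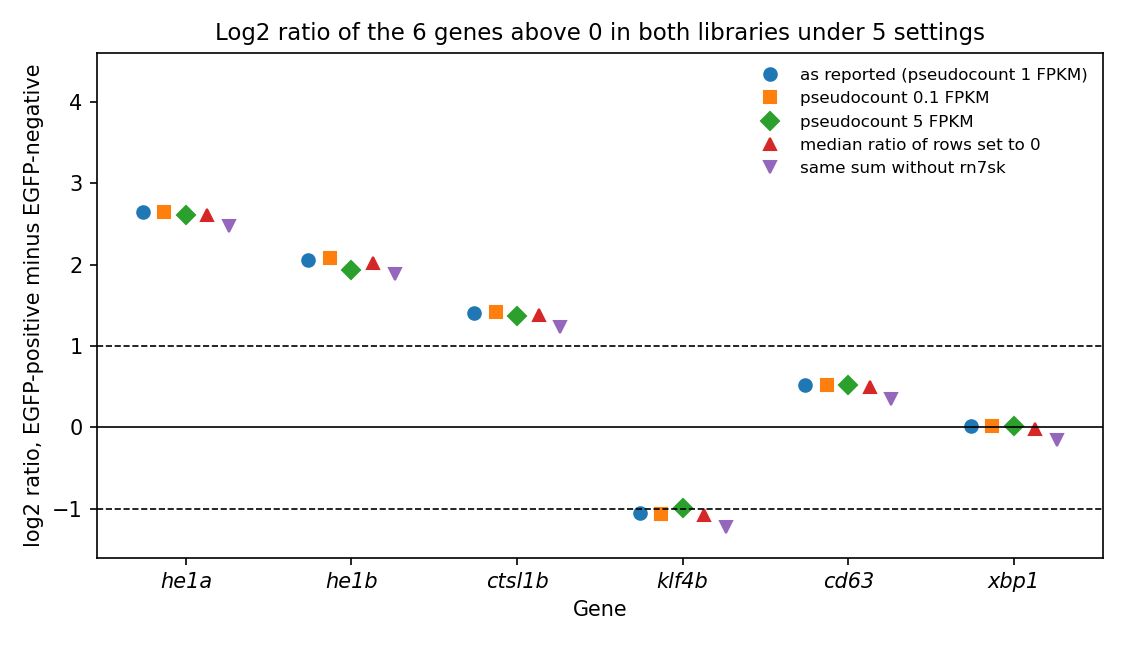
Log2 ratio (y, EGFP-positive minus EGFP-negative) of the 6 genes above 0 in both libraries (x) as reported and under 2 other pseudocounts and 2 other scalings, with dashed lines at 2-fold. The points of he1a, he1b and ctsl1b stay above the upper line in all 5 settings, those of cd63 and xbp1 stay between the lines, and those of klf4b lie on both sides of the lower line.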

How the data were processed

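RNA was sequenced from 1 library of EGFP-positive and 1 library of EGFP-negative cells. Per the labels' protocols, total RNA was isolated using Trizol with a carrier, depleted of ribosomal RNA and made into libraries with a low-input kit. The authors deposited FPKM values, 1 row per gene symbol. The submitters' processing notes name cutadapt, TopHat2 2.0.11, Cufflinks 2.2.1 and the build Zv9; for options, annotation and scaling between samples the sources used here give nothing. FPKM carries no total count, so the depth is unknown. In 712 low rows (over 0 but below 6 FPKM in each library), the fullest bin of 0.02 in the log2 ratio held 1.54% of them, so steps of whole reads could not be recovered.

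From these values log2 ratios were computed with a pseudocount of 1 FPKM, over rows at 1 FPKM or more in either library, with Python 3.11.15 and pandas 2.3.3; the pseudocount understates ratios of low genes. The calling step was run on simulated data with known changes, which says nothing of replicate error. The 7 genes and the 15 related lists were chosen with earlier results of these data known. From each list with over 4 measured genes, up to 3 called genes with the largest ratio in each direction are named, and otherwise all of them. List symbols were matched directly or through older names in RefSeq. Pseudocounts, scaling, filters and the fold size were varied. For he1a and he1b, genes at the smallest distance in level are named, and 1 of them is not reported here.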

Additional observations from a re-analysis of the deposited data

How the results depend on the processing

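No paired analysis was possible because each fraction is 1 library, and no library could be left out. Of the 7 genes, the number called lower was 1 as reported and 0 with a pseudocount of 5 FPKM, with a size of at least 3-fold, or with a minimum of 100 FPKM in either library, chosen after seeing the data; klf4b is the gene concerned. The number called higher was 3 or 4 under all 9 alternatives, which is not read as a result, since the same contrast chose the genes. It was 3 without rows at 0 and with the minimum of 100 FPKM, which both leave out agr2. It was also 3 at 3-fold, where ctsl1b lost its call. The share of all rows called higher was 22.9% as reported, 17.8% without rows at 0 and 17.1% with the minimum of 100 FPKM. Over all rows, 1325 were higher and 1228 lower when rows at 0 were left out, 284 and 250 with the minimum of 100 FPKM, and 1472 were higher at 3-fold. Of 131 list medians recomputed under alternatives, 117 kept their side of the 2-fold size. The leukocyte median of -2.01 was 0.96 with the minimum of 100 FPKM, where 1 marker is left. The hatching gland regulator median fell under 2-fold in 5 alternatives. Unknown depth, unequal cell numbers and single libraries limit every value here.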

Other observations

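Several duplicated tetraspanin genes had copies on opposite sides, a pattern picked out after the values were seen. Of 9 pairs of copies, both copies reached 1 FPKM in 6, and in 4 of those one copy was called higher and the other lower. Over all rows, 22.9% were called higher and 26.5% lower, and how often other pairs of genes split was not computed. Tspan4, in 1 of the 4, had a log2 ratio of 0.89 when the libraries were scaled to the same summed FPKM without rn7sk. That ratio was 0.93 with a pseudocount of 5 FPKM, and each of these settings ends its call. Cd9b was at 55.6 FPKM in EGFP+ cells and 10.1 FPKM in EGFP- cells, while cd9a was listed at 0 in EGFP+ cells and at 51.2 FPKM in EGFP- cells. The summed level of cd9a and cd9b was 55.6 FPKM in EGFP+ cells and 61.3 FPKM in EGFP- cells. Cd82a was at 55.9 FPKM in EGFP+ cells and 20.5 FPKM in EGFP- cells, and cd82b at 2.47 and 17.1 FPKM in that order. In 3 of the 4 pairs one copy was listed at 0 in EGFP+ cells. In the tspan13 pair, tspan13b was listed at 0 in EGFP+ cells and tspan13a at 0 in EGFP- cells, so both calls rest on listed zeros. How the authors' counting divides reads between copies is not known.

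Within the unfolded protein response, genes of ER-associated degradation were also picked out after the values were seen. Of 8 measured, 4 were called higher and 1 lower, against shares of 22.9% higher and 26.5% lower over all rows. Under either other scaling of the libraries 3 were higher. With a pseudocount of 5 FPKM, calls were counted only for the whole unfolded protein response list, which fell to 7 higher and 3 lower. Herpud1, also called higher, stood at 8.02 FPKM in EGFP+ cells and 1.81 FPKM in EGFP- cells, low levels that a larger pseudocount draws together. The derlin genes encode proteins that help to draw misfolded proteins out of the ER. Derl1 was at 31.8 FPKM in EGFP+ cells and 12.7 FPKM in EGFP- cells, and derl3 at 21.6 and 2.55 FPKM in that order. Derl2 was at 7.435 and 3.19 FPKM in that order, a log2 ratio of 1.01. That ratio was 0.98 and 0.86 under the 2 other scalings and 0.60 with a pseudocount of 5 FPKM, each of which ends its call. Hspa5, the main ER chaperone, was at 138 FPKM in EGFP+ cells and 67.7 FPKM in EGFP- cells, a log2 ratio of 1.01 that was 0.99 and 0.84 under the same scalings, while hsp90b1 was at 12.9 and 11.4 FPKM.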
